A study of Mus musculus with 6 samples.

Results

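This is a comparison of muscle cells in 2 states under the same cytokine. The 2 arrays that were set against each other, of 6 in the series, came from C2C12 cells exposed to tumour necrosis factor (TNF-α) at 50 ng/ml. They were selected by their labels: the value in differentiation medium with TNF-α minus the value in growth medium with TNF-α, for each of 22180 genes. The differentiated culture had been grown in 10% fetal bovine serum, moved to 2% differentiation medium, given TNF-α on day 4 and harvested on day 5. The growth-medium culture stayed in 10% fetal bovine serum and received TNF-α for 24 h. The other 4 arrays were used only to show where this pair stands apart: an untreated culture in differentiation medium and one in growth medium, and a culture of each medium with 10 nM BTZ. BTZ is not spelled out in the labels; the abbreviation usually stands for bortezomib, a proteasome inhibitor. Each group was 1 culture on 1 array, so a difference carries no error and no p-value, and statements below are about these arrays.

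C2C12 is an immortal mouse line of muscle precursors. In serum-rich medium the precursors, called myoblasts, divide; when serum is lowered they leave the cell cycle, switch on contractile genes under the transcription factors MyoD and myogenin, and fuse into multinucleate myotubes. TNF-α binds its receptors on muscle cells and releases the transcription factor NF-kB from its inhibitors, which turns on chemokines, acute-phase proteins and NF-kB's own inhibitors. In muscle the cytokine is known for blocking differentiation of precursors and for promoting wasting of fibres. The labels name the cell type of all 6 cultures as myoblasts, so the state of the differentiated culture was read from its genes.

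Values are log2 signals as deposited, and a difference of 1 is 2-fold. A gene was counted if its highest array reached 5.06, the median of all probe sets on all arrays, called the floor here; 13652 genes did so. On that scale 799 genes (5.85%) were at least 2-fold higher in the differentiated culture with TNF-α than in the growth-medium culture with TNF-α, and 662 (4.85%) were at least 2-fold lower. Together they make 10.7% of the genes. An 8-fold difference was reached upward by 73 genes (0.535%) and downward by 6 (0.0439%). The median difference over all genes was 0.01, and the array medians of the pair were 5.02 in the differentiated culture and 5.01 in growth medium. For 192 of the higher and 65 of the lower genes the dimmer array lay under the floor, where background compresses a fold. Of the higher genes, 37 reached the floor on no other array than the differentiated one with TNF-α, so these had to be higher there.

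The differentiated culture with TNF-α carried the genes of myotubes. It also carried an inflammatory set that the growth-medium culture with TNF-α had at lower levels or under the floor. Medium, serum and culture age differ along with cell state between the 2 cultures and cannot be told apart from it. In bulk RNA, fewer cells of a type and less RNA per cell cannot be told apart.

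Upstream sequences of 5 genes on which the comparison turns are shown here, each the 200 bases before the start site, 5′ to 3′ on the gene's strand, from RefSeq's GRCm38.p6 annotation. The capitals mark matches to motifs searched on both strands. For the inflammatory genes these were an NF-kB type motif (GGG and TTCC with 2 or 3 bases of any kind between them) and an interferon response type motif (GAAA and GAAA with 2 bases of any kind between them). For the muscle gene the E-box CAGCTG, bound by myogenic factors, and the MEF2 motif were searched, and for the cell cycle gene CCAAT and the cell cycle homology motif TTTGAA. In Cybb CCAAT was searched as well. The genes were chosen after their values were seen, and Chrng and Gbp5 because they hold matches.
Cybb, a subunit of the superoxide-producing NADPH oxidase, chrX:9469325-9469524, minus strand: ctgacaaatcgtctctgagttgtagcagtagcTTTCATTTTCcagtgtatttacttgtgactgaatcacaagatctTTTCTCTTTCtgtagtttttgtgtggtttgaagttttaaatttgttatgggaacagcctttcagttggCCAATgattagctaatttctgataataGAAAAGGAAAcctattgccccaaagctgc
Cxcl9, a chemokine for T cells, chr5:92328080-92328279, minus strand: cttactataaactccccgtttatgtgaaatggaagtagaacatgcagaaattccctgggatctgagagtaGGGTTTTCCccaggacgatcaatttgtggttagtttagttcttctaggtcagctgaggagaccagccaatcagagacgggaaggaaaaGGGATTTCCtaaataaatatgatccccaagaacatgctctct
Gbp5, an interferon-inducible GTPase, chr3:142496734-142496933, plus strand: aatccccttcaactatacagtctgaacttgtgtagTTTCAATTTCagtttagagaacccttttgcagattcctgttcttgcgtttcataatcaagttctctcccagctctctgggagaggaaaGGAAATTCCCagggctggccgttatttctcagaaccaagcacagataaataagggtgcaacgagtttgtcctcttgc
Chrng, the fetal acetylcholine receptor gamma subunit, chr1:87205611-87205810, plus strand: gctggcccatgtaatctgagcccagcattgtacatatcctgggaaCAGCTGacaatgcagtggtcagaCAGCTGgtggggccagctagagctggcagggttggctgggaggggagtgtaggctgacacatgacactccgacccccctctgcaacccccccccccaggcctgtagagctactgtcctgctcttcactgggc
Cdk1, the kinase that drives mitosis, chr10:69352913-69353112, minus strand: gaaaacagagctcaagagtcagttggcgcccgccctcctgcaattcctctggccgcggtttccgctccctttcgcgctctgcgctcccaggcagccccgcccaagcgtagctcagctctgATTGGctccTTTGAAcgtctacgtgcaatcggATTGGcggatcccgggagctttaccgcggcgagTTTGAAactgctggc

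Cybb held 3 matches to the interferon response type motif, at -168, -124 and -29 from the start site, 1 CCAAT at -56 and no match to the NF-kB type motif. Cxcl9 held the 9-base NF-kB type motif at -130 and -42 and no interferon response type match. Gbp5 held 1 of each, at -77 and -165. Chrng held the E-box at -155 and -132 and no MEF2 match. Cdk1 held CCAAT, read on the opposite strand, at -80 and -48, and TTTGAA at -71 and -15. The motifs searched in 1 gene did not overlap each other. A match describes the letters only and is neither a site nor a cause.

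The same letters were counted in promoters of the same length. Of the 579 promoters found for genes at least 2-fold higher in the differentiated culture with TNF-α 6.91% held the NF-kB type motif in either spacing, of the 525 found for the lower genes 10.5%, and of all 27025 promoters 6.87%. The interferon response type motif stood in 2.76% of the higher genes' promoters, 1.33% of the lower genes' and 2.33% of all. For the 86 genes higher with TNF-α that differed by under 0.25 in the untreated pair, 66 promoters were found, and 7 of them (10.6%) held the interferon response type motif and 6 (9.09%) the NF-kB type motif. CAGCTG stood in 17.1% of the higher genes' promoters, 8.38% of the lower genes' and 10.6% of all. The MEF2 motif stood in 3.63% of the higher genes' promoters, 1.90% of the lower genes' and 2.35% of all. CCAAT stood in 32.3% of the higher genes' promoters, 45.0% of the lower genes' and 30.0% of all. TTTGAA stood in 6.22% of the higher genes' promoters, 14.5% of the lower genes' and 12.7% of all. Among the 10658 promoters of genes above the floor, 8.07% held the NF-kB type motif, 1.84% the interferon response type motif, 10.1% CAGCTG, 1.28% the MEF2 motif and 7.72% TTTGAA, and 3414 of them held CCAAT. The higher and lower genes were chosen by their values, and these shares were not tested.

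Among the genes with the largest differences were those of the contractile apparatus. Of 14 measured genes of the thick filament, 11 were above the floor, and 7 of these were at least 2-fold higher in the differentiated culture with TNF-α and 0 lower. Their median difference was 2.91 (1.72 over all 14). Myh3, the embryonic myosin heavy chain, had 10.42 in the differentiated culture with TNF-α, against 3.62 in growth medium with TNF-α, a difference of 6.80 and the highest of all named genes. Mylpf, the fast regulatory light chain, had 10.90 and 4.54, a difference of 6.37. The growth-medium array lay under the floor for both, so that its values are near background.

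The myosin heavy chain genes did not move as a block. Along chromosome 11 (order from GRCm38.p6) lie Myh3, Myh2, Myh1, Myh4, Myh8 and Myh13, whose differences with TNF-α were 6.80, 0.83, 5.29, 3.05, 0.59 and 0.13. In the untreated cultures the same differences were 6.67, 1.23, 5.76, 4.07, 1.12 and 0.00. Myh2 was under the floor in both TNF-α cultures (4.56 and 3.74), where background limits a difference. Myh8 is the mean of 2 probe sets whose differences with TNF-α lay 1.11 apart. Myh4, a fast adult heavy chain, had 6.73 in the differentiated culture with TNF-α, against 3.68 in growth medium with TNF-α, and 7.81 against 3.74 without treatment. The slow heavy chain Myh7 had 5.31 and 5.19 with TNF-α, against 6.17 and 5.07 untreated. Mybpc1, slow myosin binding protein C, had 4.96 and 4.53 with TNF-α, against 6.49 and 4.89 untreated. Myh7 and Mybpc1 thus reached a 2-fold difference without TNF-α and fell short of it with TNF-α. Myh2 and Myh8 did the same, so the pattern was not limited to the slow genes. All 11 counted members of the thick filament list reached 2-fold upward in the untreated pair, against 7 with TNF-α. Mybpc1 lay under the floor in both TNF-α cultures and Myh7 close to it, so background limits their differences as well.

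All 17 thin filament genes measured were above the floor, and 14 were at least 2-fold higher in the differentiated culture with TNF-α, with a median difference of 3.03. Neb, the ruler of the thin filament, had 10.45 in the differentiated culture with TNF-α and 4.45 in growth medium with TNF-α. Acta1, skeletal actin, had 12.36 and 6.41, and the troponin subunits Tnnc1 and Tnnt3 differed by 5.26 and 5.11. The tropomyosins Tpm1 and Tpm3 differed by 0.04 and -0.10, and Tmod4, a pointed-end cap, by -0.14. Tnnt2, cardiac troponin T, had 12.53 in the differentiated culture with TNF-α and 10.21 in growth medium with TNF-α, a difference of 2.31, and 12.70 and 9.01 in the untreated pair, a difference of 3.69. Its differentiated values were close in the 2 pairs, and the growth-medium value was higher with TNF-α.

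Of 18 scaffold genes of the sarcomere above the floor, 15 were at least 2-fold higher (median 2.29, and 2.15 over the 19 measured). Titin, Ttn, had 11.35 in the differentiated culture with TNF-α and 5.32 in growth medium with TNF-α. Myom2, of the M-band, had 9.87 and 4.69, and the Z-disc gene Myoz2 had 7.72 and 3.67. Pdlim3, a Z-disc protein outside the list, had 11.36 and 6.20 with TNF-α, against 11.76 and 7.94 untreated, and its difference was 5.15 with TNF-α and 3.82 without. Desmin, Des, the muscle intermediate filament, had 11.59 and 10.23: it was high in both cultures and differed by 1.36.

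Genes that couple excitation to contraction followed the sarcomere. Of 20 above the floor 14 passed 2-fold upward (at least 2-fold higher in the differentiated culture with TNF-α) and 0 downward, the median being 2.31, and the untreated pair had 16 higher and a median of 2.11. Casq2, which stores calcium in the sarcoplasmic reticulum, had 10.43 in the differentiated culture with TNF-α and 4.67 in growth medium with TNF-α. Srl, a calcium-binding glycoprotein of the same store, had 10.15 and 5.40. Atp2a1, the fast calcium pump, had 9.18 and 5.23 with TNF-α, against 9.87 and 4.96 untreated. Atp2a2, the ubiquitous pump, had 11.23 and 10.85, high in both states.

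At the neuromuscular junction 7 of 10 genes were at least 2-fold higher (median 1.62). Chrng had 10.65 in the differentiated culture with TNF-α and 4.45 in growth medium with TNF-α, a difference of 6.20. Chrnd, the delta subunit and the neighbour of Chrng on chromosome 1, had 10.32 and 6.88. Musk, the kinase that receives the nerve's signal, had 8.77 and 6.54. The scaffold Rapsn had 8.50 and 8.44 with TNF-α, against 9.03 and 7.75 untreated. Its 2 TNF-α cultures were almost level, while the untreated ones differed by 1.28. Of 11 genes of the dystrophin complex 7 were at least 2-fold higher (median 1.25), led by alpha-sarcoglycan, Sgca, which differed by 2.78.

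Fusion and regulatory genes were mixed. Mymk, myomaker, the membrane protein that both partners of a fusion need, had 11.45 in the differentiated culture with TNF-α and 5.10 in growth medium with TNF-α. Mymx, myomixer, its partner, had 6.92 and 4.91. Of 15 fusion and adhesion genes 7 passed 2-fold upward and 1 downward, the median being 0.52. The lower one was Adam12, a metalloprotease of fusing precursors, with 7.01 and 8.11. Itga7, the muscle laminin receptor, had 11.18 and 10.01 with TNF-α, against 11.54 and 9.01 untreated, so its difference was 1.17 with TNF-α and 2.53 without.

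Among 12 myogenic regulators above the floor, 4 passed 2-fold upward and 1 downward (median 0.77, and 0.65 over the 14 measured). Myog, myogenin, the factor that starts terminal differentiation, had 10.59 in the differentiated culture with TNF-α and 5.97 in growth medium with TNF-α. Myod1 had 8.81 and 7.70 with TNF-α, against 9.73 and 8.12 untreated. Myf5, a factor of undifferentiated precursors, had 7.07 and 8.67 with TNF-α, against 7.88 and 8.78 untreated. Pax7, the satellite cell factor, had 7.12 and 6.74 with TNF-α, against 8.06 and 7.50 untreated. Myod1, Myf5 and Pax7 were lower in each TNF-α culture than in the untreated culture of the same medium. For Myf5 in growth medium the 2 values were nearly level. The other regulators above the floor, except Eya1 and Tead4, were also lower with TNF-α in both media, some of them by little. Genes of muscle energy metabolism had 9 of 15 members at least 2-fold higher and 0 lower (median 1.44, and 0.65 over the 19 measured), among them myoglobin, Mb, with 8.17 and 4.93, and the muscle phosphorylase Pygm with 8.18 and 4.89.

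A muscle microRNA was also in the array's annotation. The probe set for Mir133b, the precursor of a microRNA of muscle, had 7.19 in the differentiated culture with TNF-α and 4.40 in growth medium with TNF-α, against 8.41 and 5.07 in the untreated cultures. It was chosen after its values were seen, and the probe set covers the precursor locus rather than the mature strand. The mature strand from RefSeq (GRCm38.p6, chr1:20682834-20682855, plus strand) is shown with its seed, bases 2 to 8, in capitals.
mmu-miR-133b-3p: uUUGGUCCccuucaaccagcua

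**Figure D1:**
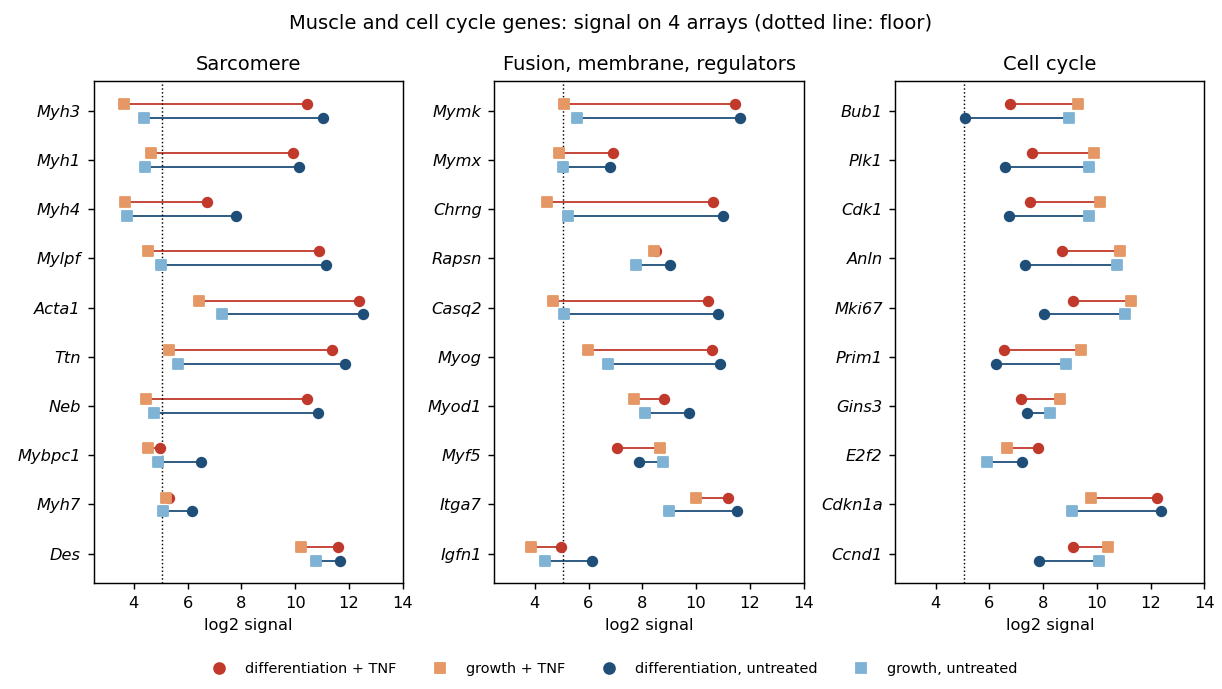
Log2 signal (horizontal axis) of 30 muscle and cell cycle genes on 4 arrays, 1 array per point; circles are differentiation medium and squares growth medium, in red tones with TNF-α and in blue tones untreated. The sarcomere genes Myh3, Mylpf and Neb lie above 10 in both differentiated cultures and under the floor in growth medium with TNF-α, while Rapsn and Myh7 are nearly level in the TNF-α pair.

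Genes of dividing cells were lower in the differentiated culture with TNF-α. All 38 measured mitotic genes were 2-fold or more lower, between -2.86 and -1.72, with a median of -2.38. Cdk1 had 7.49 in the differentiated culture with TNF-α and 10.10 in growth medium with TNF-α. Mki67, the marker of cycling cells, had 9.11 and 11.28, and Aurka, a spindle pole kinase, had 6.65 and 9.47. Every one of these values lay above the floor, so the cell cycle genes of the differentiated culture were reduced but still measurable.

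The gap in mitotic genes was narrower with TNF-α than without. In the untreated pair all 38 genes were also 2-fold or more lower, the median being -2.95, and 36 of the 38 had a less negative difference with TNF-α. Bub1, a spindle checkpoint kinase, had 6.76 and 9.30 with TNF-α, against 5.07 and 8.96 untreated. Anln, which builds the contractile ring, had 8.71 and 10.85 with TNF-α, against 7.32 and 10.74 untreated. In both genes the differentiated culture with TNF-α was more than 1 log2 unit above the untreated differentiated culture, while the growth-medium cultures differed by less than 1. The 2 exceptions were Melk and Incenp, with differences of -2.86 and -2.32 with TNF-α and of -2.52 and -2.05 untreated.

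DNA replication genes were lower as well, with 36 of 38 at least 2-fold lower, 1 higher and a median of -1.65. The untreated pair had 31 lower and a median of -1.67, so that here the 2 pairs had nearly the same median. Prim1, the primase subunit, had 6.54 in the differentiated culture with TNF-α and 9.41 in growth medium with TNF-α. Mcm5, of the replicative helicase, had 7.15 and 9.54. Gins3, of the same helicase, had 7.18 and 8.62 with TNF-α, against 7.39 and 8.27 untreated, and passed 2-fold in the TNF-α pair. The higher gene was E2f2, a factor of the G1 to S transition, with 7.81 and 6.64.

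Replication-dependent histones stood among the 16 lowest genes: H2bc12, H1f5 and H2ac20 had 5.69, 6.99 and 7.31 in the differentiated culture with TNF-α, against 9.03, 10.27 and 10.26 in growth medium with TNF-α. Of 15 CDK inhibitors, pocket proteins, D cyclins and their kinases, 2 passed 2-fold upward and 3 downward (median -0.02). Cdkn1a, the inhibitor p21, had 12.25 and 9.79, and Ccnd3, the D cyclin of differentiated muscle, had 8.90 and 7.88. Ccnd1, the D cyclin of dividing cells, had 9.11 and 10.41 with TNF-α, against 7.86 and 10.08 untreated. Rbl1, a pocket protein of cycling cells, had 7.15 and 8.94. The remaining lower gene was Cdkn2d, a CDK inhibitor, with 6.67 and 7.72, so CDK inhibitors went both ways.

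Inflammatory genes set this pair apart from the untreated one. Among 24 measured chemokines 20 were above the floor, 2 of them through the differentiated array with TNF-α alone. Of the 20, 11 were at least 2-fold higher in the differentiated culture with TNF-α and 0 lower, and of the 18 above the floor on another array 9 were higher. The median difference was 1.36 (0.78 over all 24), against -0.08 in the untreated pair, where 2 were higher and 2 lower; 4.83% and 3.92% of all genes were so in that pair.

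Cxcl9 had 9.87 in the differentiated culture with TNF-α and 4.94 in growth medium with TNF-α, against 4.35 and 4.83 in the untreated cultures. Only the differentiated culture with TNF-α was above the floor among the 6, the 2 BTZ arrays included. Its neighbour on chromosome 5, Cxcl10, had 8.24 and 6.47 with TNF-α, against 4.46 and 4.69 untreated. Cxcl11, another ligand of the receptor CXCR3, had 7.07 and 5.25. These 3 ligands of CXCR3 were therefore all higher in the differentiated culture, by 4.93, 1.77 and 1.82.

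Among the CC chemokines Ccl5, an attractant of T cells and monocytes, had 12.67 in the differentiated culture with TNF-α and 9.86 in growth medium with TNF-α, against 4.37 and 5.04 untreated. Ccl9 had 10.39 and 7.74 with TNF-α, against 6.13 and 6.53 untreated. Ccl8 had 10.18 and 6.63 with TNF-α, against 7.53 and 5.15 untreated, so it was higher in differentiation medium in both pairs. The monocyte attractant Ccl2 had 12.70 and 12.63 with TNF-α, against 6.09 and 7.52 untreated. Ccl7 had 11.77 and 12.09, and the neutrophil attractants Cxcl1 and Cxcl5 differed by 0.22 and -0.12. Both TNF-α cultures were thus high in Ccl2, Ccl7, Cxcl1 and Cxcl5 and differed little. Ccl5 was high in both as well and more than 2-fold apart between them, and Cxcl9 was above the floor only in the differentiated one.

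The split ran through neighbouring genes. On chromosome 11 (GRCm38.p6 order) Ccl2, Ccl7, Ccl11, Ccl12 and Ccl8 lie side by side, with differences of 0.07, -0.32, 1.43, -0.20 and 3.55. Ccl12 was under the floor on all 6 arrays, so its difference is one of background. Farther along lie Ccl5, Ccl9, Ccl6, Ccl3, Ccl4 and Wfdc17, with 2.81, 2.66, 0.09, 1.93, -0.05 and 4.12. Ccl4 was close to the floor in both TNF-α cultures (5.26 and 5.32). Wfdc17, a small secreted protein of activated macrophages, had 9.91 in the differentiated culture with TNF-α and 5.80 in growth medium with TNF-α, against 5.69 and 5.66 untreated.

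Of 22 measured acute-phase and complement genes 12 were above the floor, and 3 of these through the differentiated array with TNF-α alone. Among the 12, 11 passed 2-fold upward and 0 downward, and among the 9 above the floor on another array 8 did. The median was 1.71 (1.16 over all 22), against 0.34 in the untreated pair. Cfb, complement factor B of the alternative pathway, had 12.12 in the differentiated culture with TNF-α and 6.39 in growth medium with TNF-α, against 5.15 and 4.99 untreated. Lbp, the lipopolysaccharide-binding protein, had 9.31 and 4.36 with TNF-α, against 4.79 and 4.71 untreated. Lbp lay under the floor on every array but the differentiated one with TNF-α, and Cfb was far above background in that culture and moderately above it in growth medium with TNF-α.

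Saa3, a serum amyloid A protein made outside the liver, had 13.16 in the differentiated culture with TNF-α and 11.04 in growth medium with TNF-α, against 4.36 and 4.73 untreated. Ptx3, a long pentraxin, had 10.90 and 7.26 with TNF-α, against 5.15 and 5.86 untreated. Haptoglobin, Hp, had 8.96 and 7.20 with TNF-α, against 4.99 and 5.28 untreated. Serping1, the C1 inhibitor, had 8.75 and 5.74 with TNF-α, against 7.58 and 5.18 untreated. The first 3 were high in both TNF-α cultures and higher in the differentiated one, and Serping1 differed by medium in both pairs, by 3.01 and 2.40.

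Oxidant enzymes showed the same contrast in a few genes. Cybb had 10.11 in the differentiated culture with TNF-α and 4.62 in growth medium with TNF-α, against 4.30 and 4.45 untreated, and all 5 arrays other than the first lay under the floor. Its difference of 5.48 with TNF-α exceeded that of the untreated pair, -0.16, by more than for any other named gene. Nos2, inducible nitric oxide synthase, had 9.69 and 5.47 with TNF-α, against 5.12 and 5.23 untreated. Cyba, which forms the membrane unit of the oxidase with Cybb, had 5.69 and 5.57, and the cytosolic subunits Ncf1 and Ncf4 differed by -0.26 and 0.58. Of 15 genes of this list above the floor 5 passed 2-fold upward and 1 downward, the median being 0.57 (0.24 over the 17 measured). The lower one was Ptgs2, the inducible prostaglandin synthase, with 10.06 and 11.44. Of the 15, 2 were above the floor through the differentiated array with TNF-α alone. Among the 13 above it on another array 3 passed 2-fold upward.

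Clec4e, a receptor for fungal and mycobacterial glycolipids, had 11.48 in the differentiated culture with TNF-α and 7.37 in growth medium with TNF-α, against 3.87 and 4.11 untreated. The toll-like receptors Tlr2, Tlr3 and Tlr4 differed by 1.55, 1.60 and 1.02, and Cgas, the sensor of cytosolic DNA, by -1.61. Tlr6, Tlr5 and Tlr9, also above the floor, stayed within 2-fold, with 0.95, -0.17 and -0.08. Of 16 pattern recognition genes above the floor 5 passed 2-fold upward and 1 downward, the median being 0.29, and -0.08 over the 23 measured.

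Markers of macrophages were read beside these genes, since Cybb, Clec4e and Wfdc17 are known from such cells. Of 19 measured markers 7 were above the floor, 2 of them at least 2-fold higher in the differentiated culture with TNF-α, 1 lower and 4 within 2-fold. The mean level of the 19 was 4.67 in the differentiated culture with TNF-α and 4.58 in growth medium with TNF-α, against 4.70 and 4.67 untreated. The markers Adgre1, Itgam, Ptprc, Lyz2, Aif1 and Tyrobp were under the floor on all 6 arrays. Spi1, another macrophage marker, lay close to the floor, with 5.13 and 4.75 with TNF-α, against 4.91 and 5.11 untreated. Cd53, a tetraspanin of blood cells, had 8.14 and 6.64 with TNF-α, against 7.08 and 5.37 untreated, and Fcer1g, a signalling chain of Fc receptors, had 5.87 and 4.86, against 5.16 and 5.22. The lower marker was Cd68, a lysosomal protein abundant in macrophages, with 5.70 in the differentiated culture with TNF-α and 6.80 in growth medium with TNF-α, against 5.63 and 6.57 untreated; it was above the floor on all 6 arrays. Markers of T and B cells were above the floor for 1 of 8 genes, of endothelium for 2 of 10 and of fat cells for 6 of 9, and none of these 9 was at least 2-fold apart with TNF-α. Their mean levels in the differentiated and the growth-medium culture with TNF-α were 4.16 and 4.29 for T and B cells, 4.34 and 4.48 for endothelium, and 4.88 and 4.87 for fat cells.

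Of 37 interferon-stimulated genes measured, 25 were above the floor, and 8 of these through the differentiated array with TNF-α alone. Among the 25, 9 passed 2-fold upward, 0 downward and 16 lay within 2-fold, and among the 17 above the floor on another array 3 did. The median difference was 0.81 (0.57 over all 37) against 0.15 in the untreated pair, where 0 of 25 passed 2-fold either way. Gbp7, a guanylate-binding GTPase, had 7.11 in the differentiated culture with TNF-α and 4.24 in growth medium with TNF-α, against 4.16 and 4.41 untreated. Gbp5 had 6.45 and 3.59 with TNF-α, against 3.61 and 3.79 untreated. On chromosome 3 (GRCm38.p6) Gbp5, Gbp7, Gbp3 and Gbp2b lie in one cluster and differed by 2.87, 2.88, 1.65 and 3.91, while Gbp4 and Gbp6 on chromosome 5 were under the floor. Gbp2b is outside the list and was chosen after its values were seen.

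Parp14, an ADP-ribosyl transferase, had 8.01 and 5.93 with TNF-α, against 5.36 and 4.94 untreated. Stat2, which carries the type I interferon signal, had 8.32 and 6.82 with TNF-α, against 7.61 and 7.37 untreated. Irf1, a factor induced by interferon gamma and by NF-kB, had 8.71 and 7.75, and Irf9 had 7.11 and 6.76, short of 2-fold. Mx1, Mx2, Rsad2 and Oas2, typical targets of type I interferon, were under the floor on all 6 arrays. Ifit1 and Oasl2, also antiviral genes, had 6.69 and 6.45 in the differentiated culture with TNF-α and 4.92 and 4.39 in growth medium with TNF-α. Both were under the floor on every other array. The list thus held members with clear differences, antiviral ones among them, beside antiviral genes at background.

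Of 15 genes of MHC class I presentation above the floor 4 passed 2-fold upward and 0 downward, the median being 0.70 against 0.16 in the untreated pair. H2-T23, a non-classical heavy chain, had 7.63 in the differentiated culture with TNF-α and 5.82 in growth medium with TNF-α, against 6.55 and 5.87 untreated. Psmb10, an immunoproteasome subunit, had 9.66 and 8.40 with TNF-α, against 6.87 and 6.98 untreated. Tap2, of the peptide transporter, had 6.69 and 5.52. The light chain B2m had 12.82 and 12.12, high in both.

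**Figure D2:**
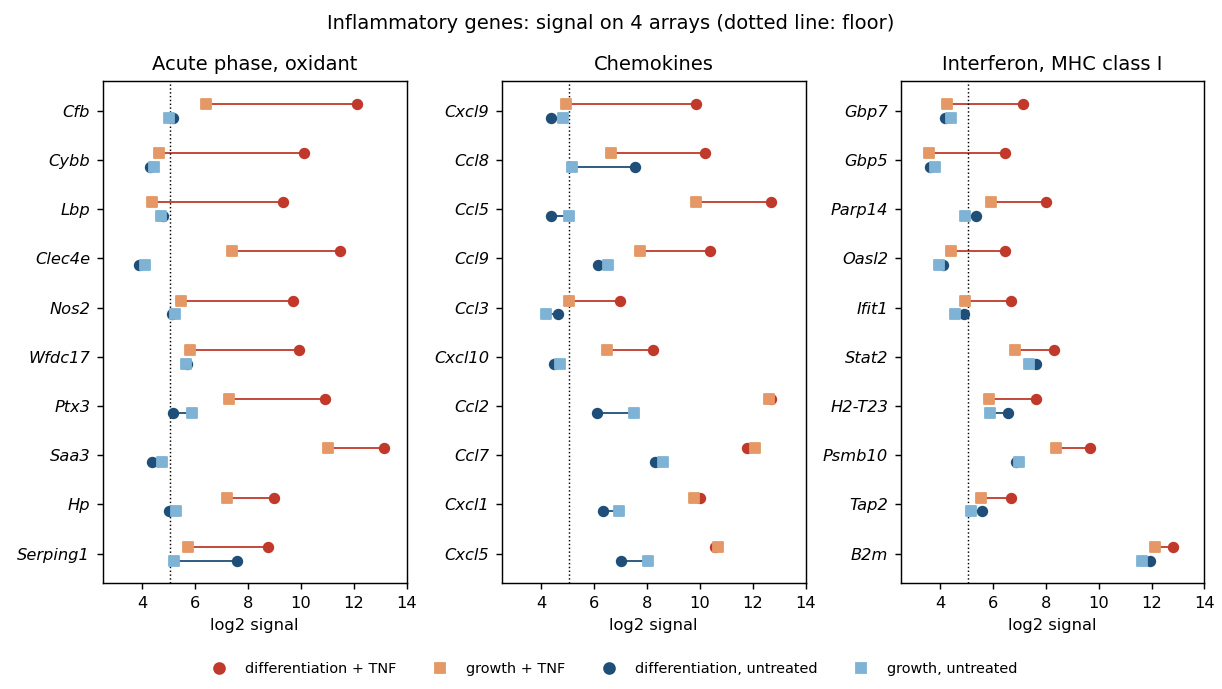
Log2 signal (horizontal axis) of 30 inflammatory genes on 4 arrays, 1 array per point, with circles for differentiation medium and squares for growth medium. Cfb, Cybb, Lbp and Cxcl9 are above 9 only in the differentiated culture with TNF-α among these 4 arrays, while Ccl2 (12.70 and 12.63), Ccl7, Cxcl1 and Cxcl5 nearly coincide in the TNF-α pair.

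Most genes of the machinery of NF-kB itself lay within 2-fold between the TNF-α cultures. Of 17 genes 3 passed 2-fold upward and 0 downward, the median being 0.36, so that 14 lay within 2-fold. Over all genes 5.85% passed 2-fold upward. The difference was above 0 for 15 of the 17, and in the untreated pair all 17 lay within 2-fold. Rela, the main activating subunit, had 10.25 in both. The inhibitor Nfkbia had 10.78 in the differentiated culture with TNF-α and 10.61 in growth medium with TNF-α, against 7.60 and 8.24 untreated. Tnfaip3, the deubiquitinase A20, had 9.52 and 8.92, against 6.79 and 6.32. The 3 past 2-fold were Nfkbie, Tnip3 and Birc3, with 1.27, 1.18 and 1.02. Birc3 was above the floor through the differentiated array with TNF-α alone, and of the other 16 genes 2 passed. Nfkbia and Tnfaip3 were thus higher in both TNF-α cultures than in the untreated ones, where they were also above the floor.

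Receptor and death genes also lay mostly within 2-fold. Tnfrsf1a, the main TNF-α receptor, had 8.95 in the differentiated culture with TNF-α and 8.86 in growth medium with TNF-α, and Tnfrsf1b, the other one, had 8.96 and 8.16. Of 24 cytokine receptor and death genes 5 passed 2-fold upward, 0 downward and 19 lay within 2-fold, the median being 0.49. In the untreated pair 4 were higher and 1 lower, and with TNF-α 5.85% of all genes were higher. Lifr, the receptor for leukaemia inhibitory factor, had 11.09 and 8.72 with TNF-α, against 10.97 and 9.58 untreated. Ifngr1, of the interferon gamma receptor, had 9.88 and 8.60 with TNF-α, against 8.22 and 8.01 untreated. Osmr, the oncostatin M receptor, had 10.63 and 9.53, and the inflammatory caspases Casp4 and Casp12 differed by 1.80 and 1.96.

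Secreted cytokines and growth factors had 7 of 16 members at least 2-fold higher and 1 lower (median 0.76, and 0.51 over the 22 measured). Of the 16, 2 were above the floor through the differentiated array with TNF-α alone, and 6 of the other 14 were higher. Fst, follistatin, which binds activins and myostatin, had 9.75 in the differentiated culture with TNF-α and 6.93 in growth medium with TNF-α. Igf1 had 7.91 and 5.20 with TNF-α, against 9.56 and 6.59 untreated, and was lower in each TNF-α culture than in the untreated one of its medium. Il15 had 6.76 and 4.67 with TNF-α, against 4.51 and 4.29 untreated. Inhba, the activin A chain, had 7.03 and 8.55. The Tnf gene itself was under the floor on all 6 arrays.

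**Figure D3:**
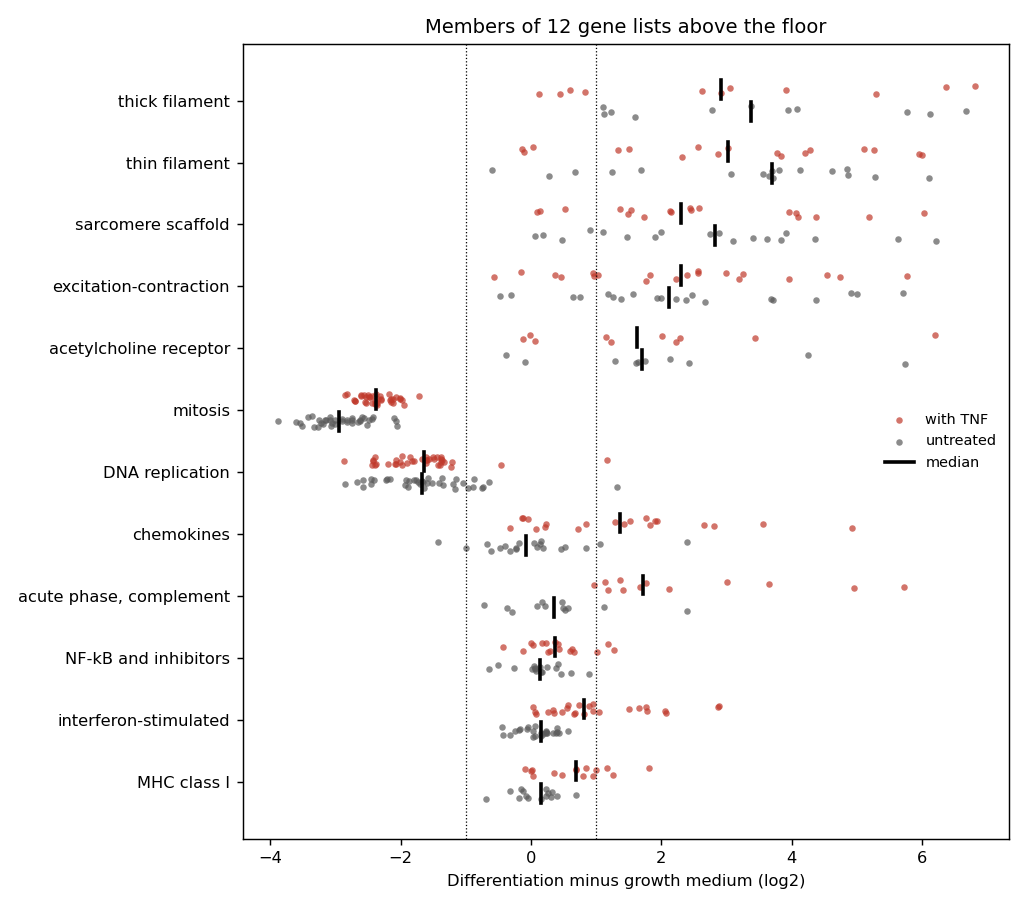
Difference between differentiation and growth medium (log2, horizontal axis) of each member above the floor in 12 gene lists, red with TNF-α and grey untreated; each point is 1 gene, the black bar is the list's median and dotted lines mark 2-fold. The mitotic genes lie left of -1 in both pairs (medians -2.38 and -2.95), and the chemokine median is 1.36 with TNF-α and -0.08 untreated. Of the 20 chemokines shown, 2 reach the floor through the differentiated array with TNF-α alone. Over all 24 measured the medians are 0.78 and -0.03.

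Of 18 collagens above the floor 8 passed 2-fold upward and 1 downward with TNF-α (median 0.65), and 2 were higher and 1 lower in the untreated pair (median 0.40). Col4a2, of basement membranes, had 8.18 in the differentiated culture with TNF-α and 6.46 in growth medium with TNF-α, against 8.14 and 7.41 untreated. Col6a1 had 8.79 and 6.98 with TNF-α, against 9.44 and 8.50 untreated. In both genes the growth-medium value was lower with TNF-α than without it. Col6a3 had 6.95 and 8.16, lower in the differentiated culture.

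Of 19 proteoglycans and matricellular genes 7 passed 2-fold upward and 1 downward (median 0.63). Decorin, Dcn, had 10.06 in the differentiated culture with TNF-α and 5.69 in growth medium with TNF-α. Mgp, matrix Gla protein, had 12.61 and 8.98 with TNF-α, against 12.74 and 10.66 untreated. Postn, periostin, had 12.23 and 9.58. Outside the list, Prg4, the joint lubricant lubricin, was among the lowest genes, with 8.11 and 11.58, and C1qtnf3, a secreted C1q-like protein, among the highest, with 11.37 and 5.88. Cilp, a cartilage matrix protein, had 4.91 and 3.87 with TNF-α, against 8.25 and 4.45 untreated, and was under the floor in both TNF-α cultures.

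Among matrix proteases and their regulators 8 of 19 passed 2-fold upward and 2 downward (median 0.72). Of the 19, 1 was above the floor through the differentiated array with TNF-α alone, and 7 of the other 18 passed 2-fold upward. The aggrecanases Adamts4 and Adamts5 differed by 4.16 and 3.22 with TNF-α, against 2.47 and 0.92 untreated. Adamts4 had 10.24 in the differentiated culture with TNF-α and 6.07 in growth medium with TNF-α, and Adamts5 had 10.84 and 7.62. Serpinb2, plasminogen activator inhibitor 2, was the lowest of all named genes, with 5.40 and 9.85 with TNF-α, against 4.56 and 5.55 untreated. Plaur, the urokinase receptor, had 6.05 and 9.06 with TNF-α, against 5.15 and 8.44 untreated. Plaur was thus low in differentiation medium in both pairs, while Serpinb2 was high only in growth medium with TNF-α among these 4 arrays.

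Of 19 genes of muscle wasting and autophagy 7 passed 2-fold upward and 0 downward (median 0.58). Trim63, the ligase MuRF1, had 7.08 in the differentiated culture with TNF-α and 5.25 in growth medium with TNF-α, against 6.73 and 4.91 untreated, with differences of 1.83 and 1.82. Fbxo32, the ligase atrogin-1, had 8.77 and 9.01 with TNF-α, against 8.95 and 7.53 untreated. The 2 ligases therefore differed in pattern: Trim63 kept its medium difference with TNF-α, and Fbxo32 had none past 0.25. Map1lc3b, of autophagy, had 10.76 and 9.27, and Bnip3, a mitophagy receptor, had 8.75 and 7.11.

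The TNF-α pair and the untreated pair share no array, so their differences could be set side by side. In the untreated pair 8.75% of genes were at least 2-fold apart. Of the 799 genes at least 2-fold higher with TNF-α 448 were so untreated (56.1% of the TNF-α list and 67.9% of the untreated list). Of the 662 lower genes 391 were shared (59.1% of the TNF-α list and 73.1% of the untreated list). Across the 13652 genes the 2 sets of differences had a Pearson correlation of 0.81 and a Spearman correlation of 0.69; genes are not independent replicates, and the points share the medium contrast and the probe sets. Of the shared higher genes 225 were larger with TNF-α, and of the shared lower genes 191.

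In the BTZ pair 1.54% of genes passed 2-fold upward and 2.13% downward in differentiation medium (3.67% in all), with 112 of the higher genes and 185 of the lower genes shared with the TNF-α pair (14% and 27.9% of the TNF-α lists, 53.3% and 63.6% of the BTZ lists). The Pearson correlation with the BTZ pair was 0.45. Higher in all 3 pairs were 96 genes and lower in all 3 were 168. Chrng shows the contrast: its difference was 6.20 with TNF-α, 5.73 untreated and 0.14 with BTZ, whereas Ttn had 6.03, 6.21 and 5.56.

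The 8 higher genes whose difference with TNF-α exceeded the untreated one most were Cybb, Cfb, Cxcl9, Lbp, Ptx3, Clec4e, Nos2 and Wfdc17, by between 4.08 and 5.64. Apart from Wfdc17 they are members of the acute-phase, chemokine, pattern recognition and oxidant lists above, and none of the 8 differed by 1 or more in the untreated pair. Among genes past 2-fold with TNF-α, 86 of the higher and 24 of the lower ones differed by under 0.25 either way in the untreated pair.

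On the lower side the 8 were Serpinb2, Ccbe1, U90926, Uchl3, Ackr3, Neurl3, Mfsd2a and Clmn. U90926 had 4.70 in the differentiated culture with TNF-α and 6.98 in growth medium with TNF-α, against 4.72 and 4.60 untreated. Ackr3, the scavenger receptor for CXCL12, had 5.61 and 7.34 with TNF-α, against 6.91 and 6.64 untreated. Its ligand Cxcl12 had 10.45 and 8.55, against 9.65 and 8.60, so ligand and scavenger receptor differed in opposite directions between the TNF-α cultures. Neurl3, a ubiquitin ligase, differed by -1.60 with TNF-α and by 0.28 untreated. Uchl3, a ubiquitin hydrolase, had 3.33 and 5.42, under the floor in the differentiated culture and just above it in growth medium.

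Another 53 genes were at least 2-fold apart in the untreated pair and within 0.25 of each other with TNF-α, 31 of them higher and 22 lower in untreated differentiation medium. F3, tissue factor, had 7.91 in the differentiated culture with TNF-α and 8.15 in growth medium with TNF-α, against 7.13 and 9.66 untreated. Hgf, hepatocyte growth factor, had 8.78 and 8.82 with TNF-α, against 7.27 and 9.28 untreated. Aspn, asporin, had 4.36 and 4.12 with TNF-α, against 8.54 and 6.98 untreated. Il1rn, the interleukin 1 receptor antagonist, had 5.63 and 5.65, against 4.98 and 6.93. In F3, Hgf and Il1rn the 2 TNF-α values lay between the untreated ones, and in Aspn both lay under the floor.

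**Figure D4:**
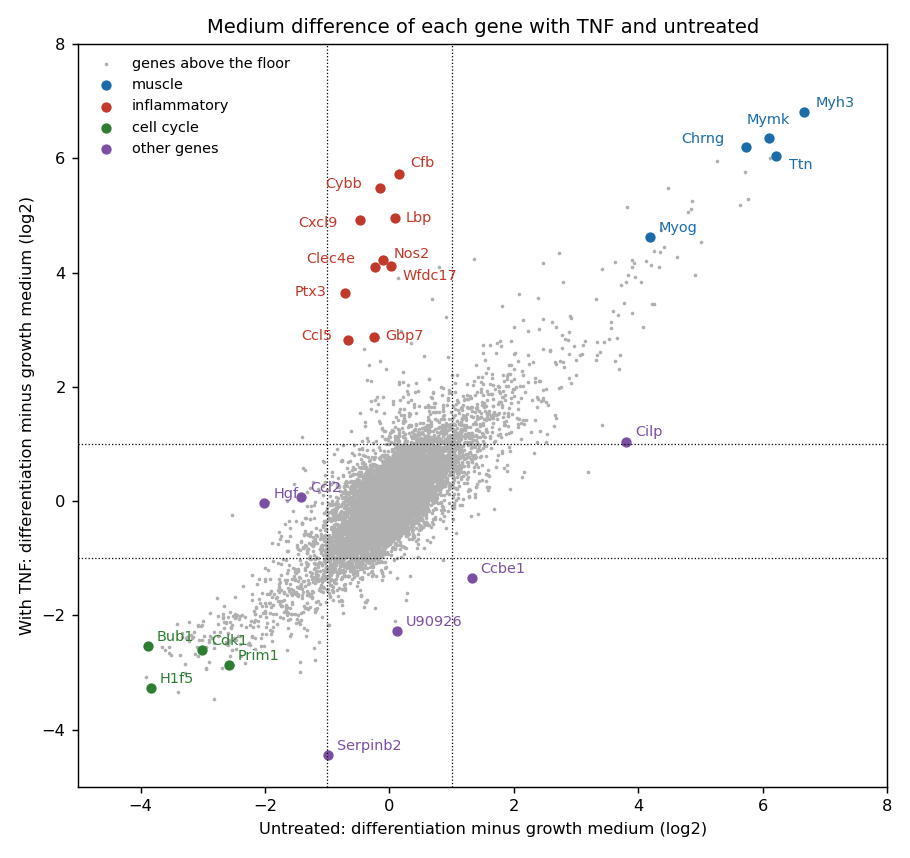
Difference between differentiation and growth medium of 13652 genes (log2), untreated on the horizontal axis and with TNF-α on the vertical axis; each point is 1 gene and dotted lines mark 2-fold. Muscle genes such as Myh3 (6.67 untreated, 6.80 with TNF-α) lie along the diagonal, and Cfb, Cybb, Cxcl9 and Lbp lie near 0 untreated and above 4.9 with TNF-α.

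**Figure D5:**
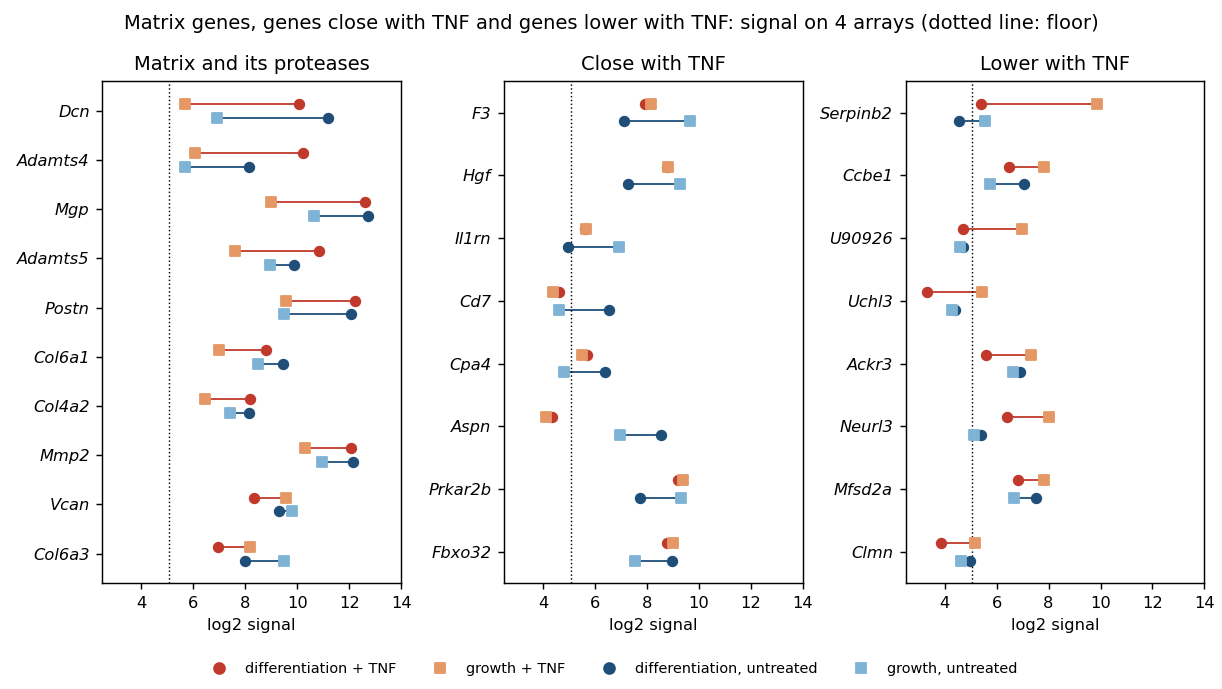
Log2 signal (horizontal axis) of 26 genes on 4 arrays, 1 array per point: matrix genes, genes at least 2-fold apart untreated and within 0.25 with TNF-α, and genes lower in the differentiated culture with TNF-α. Hgf and Il1rn coincide in the TNF-α pair, and Serpinb2 reaches 9.85 in growth medium with TNF-α.

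Probe sets with no gene named were 2-fold or more higher in 372 cases (4.42%) and lower in 510 (6.06%) of 8413 above the floor with TNF-α, 10.5% in all. In the untreated pair the shares were 3.83% and 6.87%, 10.7% in all. Of 814 genes above the floor with several probe sets, 73 had probe sets whose differences with TNF-α lay 1 log2 unit or more apart, and the median spread was 0.32.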

How the data were processed

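RNA of 6 C2C12 cultures was read on 6 Affymetrix whole-transcript arrays, 1 per group; per the labels' protocols, total RNA was amplified and labelled with biotin. The deposited log2 values, 1 per probe set and array, were used as the authors gave them, taken as log2 from their range. How probe signals were summarized and normalized before deposit is not stated in the labels, and no column was left out. Of 41345 probe sets 23521 name 1 gene symbol, 1814 several and 16010 none in the platform annotation. Single-symbol probe sets were averaged per gene, giving 22180 genes. Genes were used if their highest array reached the median of all values.

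Differences were differentiation minus growth medium within TNF-α, untreated and BTZ pairs (Python 3.11.15, pandas 2.3.3, numpy 2.4.6). With 1 array a side no test was made, and the number of arrays limits precision. The computation was tested on simulated data. The 37 gene lists and the comparison were chosen with earlier results of these data known. Named genes were the 16 highest and 16 lowest (small RNAs, predicted genes and receptor families aside), the 8 largest differences of main lists and the 4 largest of others, further main-list members where a subgroup is described, the 8 genes each way whose difference with TNF-α departs most from the untreated one, and 8 genes apart only untreated; any other list member or gene that is named was chosen after its values were seen. Alternatives were 2 rescalings, the brightest probe set of a gene, other floors and a 3-fold threshold.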

Additional observations from a re-analysis of the deposited data

Results flagged for a closer look

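A gene is given here where the medium difference with TNF-α and the one in another pair were both at least 2-fold and opposite in sign; each rests on 4 arrays and the differences were not tested against each other. Ccbe1, a secreted protein of lymphatic vessel growth, differed by -1.35 with TNF-α and by 1.32 untreated, with 6.47 in the differentiated culture with TNF-α, 7.82 in growth medium with TNF-α, and 7.07 and 5.75 in the untreated cultures. The predicted gene Gm10272 differed by 1.13 with TNF-α and by -1.41 untreated, and 3 of these 4 values lay under the floor.

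Against the BTZ pair, Adgrg1, an adhesion receptor, differed by 1.42 with TNF-α and by -1.02 with BTZ. Ccnd1 differed by -1.30 with TNF-α and by 1.16 with BTZ, where it had 8.96 in differentiation medium and 7.80 in growth medium. Dusp1, a phosphatase of MAP kinases, differed by 1.23 with TNF-α and by -1.27 with BTZ. With 1 array per group, no group was large enough for a look at outlying samples.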

How the results depend on the processing

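No paired analysis was possible because each group has 1 array and all share the replicate number 1. Shifting the arrays to the same median gave 784 higher and 674 lower genes, quantile normalization 813 and 625, the brightest probe set 830 and 681, no floor 829 and 699, a floor on the TNF-α pair 794 and 661, and a floor 1 log2 unit higher 732 and 633, all within 1.5 times of 799 and 662. At 3-fold there were 315 higher and 275 lower genes, with 179 and 191 shared with the untreated pair, fewer by construction. Without a floor 1 chemokine passed 2-fold downward (Cxcl3, under the floor on all arrays), where 0 did with it; the other 191 of 192 main list counts stayed within 1.5 times. Of 239 named genes in 3 rescalings or probe set rules, 709 of 717 values moved by under 0.25, 8 moved more, all with the brightest probe set, and 0 changed sign past 2-fold. Of 219 list medians 184 moved by under 0.1. The pattern recognition median was 0.29 with the floor, -0.08 without it and 0.88 with the floor 1 log2 unit higher. Folds of genes under the floor on the dimmer array are limited by background.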

Other observations

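Of 15 antioxidant genes under the factor NRF2, 6 passed 2-fold downward in the differentiated culture with TNF-α, 0 upward and 9 lay within 2-fold, the median being -0.74, and the untreated pair also had 6 lower, with a median of -0.97. Nqo1, a quinone reductase, had 6.35 in the differentiated culture with TNF-α and 9.02 in growth medium with TNF-α. Gclm, of glutathione synthesis, had 8.04 and 9.64, and Gsta4, which clears lipid aldehydes, had 8.09 and 10.46. All 26 ribosomal protein genes had a difference below 0, 2 of them by at least 2-fold and 24 within it, with a median of -0.51, against -0.44 untreated; housekeeping genes had a median of -0.23 with TNF-α and -0.26 untreated.

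Genes of cholesterol synthesis had a median of 0.53 with TNF-α and -0.12 untreated, and 15 of 15 had a larger difference with TNF-α; 2 of them passed 2-fold with TNF-α. Insig1, which holds back the regulator SREBP2, had 10.62 in the differentiated culture with TNF-α and 9.39 in growth medium with TNF-α, against 10.46 and 10.56 untreated. Mvd, a mevalonate pathway enzyme, had 7.68 and 6.66 with TNF-α, against 7.89 and 7.40 untreated. For Insig1 and Mvd the lowest of the 4 values was that of growth medium with TNF-α. Among 17 Id, Notch and related genes 2 were higher and 2 lower; Id1, an inhibitor of myogenic factors, had 6.04 and 7.37, and Hes6, which favours differentiation, had 7.35 and 6.15. Among 18 p53 targets 3 were higher and 1 lower, the same counts as in the untreated pair. Eda2r, an ectodysplasin receptor, had 8.77 and 6.21. Beside the counts in this paragraph, 5.85% of all genes were higher with TNF-α and 4.85% lower. Of 25 respiratory chain genes 0 were higher and 1 lower, with a median of -0.13. Of 9 leukocyte adhesion genes 2 were higher and 2 lower: Icam1 had 7.04 and 5.44, Vcam1 11.97 and 10.86, Selp 4.97 and 7.14, and Alcam 6.54 and 8.57.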
